A study of Mus musculus with 12 samples.

Results

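Mitochondrial ribosomal protein genes were followed through the polysome and RNP pools of mouse oocytes with and without *Lsm14b*. They were taken as every gene symbol of the deposited table that reads Mrpl or Mrps, then a number and at most 1 letter, which gave 77 of 24259 genes, 48 named Mrpl and 29 named Mrps. No measured value entered this choice. By structure, 50 of the 77 encode proteins of the large subunit and 26 encode proteins of the small subunit, since *Mrps18a* and *Mrps30* carry a small-subunit name for proteins of the large subunit. The remaining gene, *Mrps36*, was named as a ribosomal protein and is now known as a part of the 2-oxoglutarate dehydrogenase complex.

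GV-stage oocytes, which are arrested before the first meiotic division, came from 3-week-old C57BL/6J mice, either WT or homozygous for the Lsm14b tm1a(KOMP)Mbp allele (KO), collected 46 h after 5 IU of PMSG. LSM14B is an RNA-binding protein of the RNP particles in which oocytes store maternal mRNAs. The allele is carried by every cell of the animal, so the follicle cells around the KO oocytes also carried it. Lysates of about 1500 oocytes, treated with cycloheximide, were run on sucrose gradients of 28 fractions, and fractions 1 to 10 (RNP) and 11 to 28 (polysome) were pooled. Each of the 4 groups (WT RNP, WT polysome, KO RNP and KO polysome) has 3 libraries, 12 in all, made by Smart-seq2. The labels do not say whether the 3 libraries of a group came from separate animals, so p-values measure the spread between these libraries.

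The mitochondrion has its own ribosome, which makes only the few proteins of the inner membrane that mitochondrial DNA encodes. Its rRNAs come from mitochondrial DNA, while all its proteins are encoded in the nucleus, made by cytosolic ribosomes and imported. Some of these proteins have counterparts in bacterial ribosomes and others were added in the evolution of mitochondria. A fully grown oocyte holds far more mitochondria than a somatic cell and passes them to the embryo. The level of a transcript in the polysome pool is a level of mRNA that sediments with ribosomes and not a measure of protein.

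All values are FPKM, the fragments of a gene per kb of transcript and corrected for the size of the library, and changes are on the scale of log2(FPKM + 1), tested with limma and Benjamini-Hochberg adjustment over all genes at 0.05. A gene past this threshold is called changed. *Lsm14b* had 34.6, 29.3 and 27.4 FPKM in WT RNP and 0.893, 0.0627 and 0 in KO RNP, and 11.3, 15.3 and 13.2 in WT polysomes against 0.260, 0 and 0.0876 in KO polysomes, for replicates 1, 2 and 3. Each library held an estimated 4.89 to 7.91 M fragments. One library stood apart, the KO polysome library of replicate 2, where 34.7% of the summed FPKM fell on 10 genes against 11.6% to 14.7% elsewhere. Each of 10 oocyte markers was above 0 in each library. Of 14 granulosa and cumulus markers, *Foxl2* and *Amhr2* were at 0 in 11 of the 12 libraries and *Lhcgr* in 12, while *Cyp19a1* was present throughout at 14.6 to 62.0 FPKM. Their summed FPKM was 81.4 to 103.3 in KO polysomes and 27.5 to 75.6 in WT polysomes, and 43.2 to 66.4 against 31.4 to 37.2 in RNP. In polysomes the rise of the sum rests on *Inha*, a subunit of inhibin, with 9.58, 0 and 8.11 FPKM in WT and 51.4, 39.4 and 39.5 in KO. Without it the sums were 27.5 to 66.0 and 29.9 to 63.8, which overlap. *Cyp19a1*, the highest of the other markers, had 62.0, 19.0 and 32.0 in WT and 14.6, 23.5 and 34.5 in KO polysomes. Lower markers rose too, *Fshr* from 0, 0 and 0.6996 FPKM in WT to 4.36, 3.14 and 6.74 in KO polysomes. *Inhba* had 0.2517, 0 and 0 against 3.72, 8.27 and 11.9 FPKM. Of 7 markers tested in polysomes, limma called 3 higher and 0 lower, and 2 changed by less than 0. Of all genes tested there, 5.64% were called higher and 4.73% lower. The filter asked for an FPKM of 1 in 3 or more libraries. *Fshr* and *Inhba* passed it through their KO libraries alone, so that they could only rise. The median change of the 7 was 1.13, against 0.10 for all genes, and it includes these 2. Without *Inha* the RNP sums were 31.2 to 37.2 in WT and 39.4 to 55.4 in KO. The part of these markers in the results was not tested. In FPKM, a lower value can be fewer transcripts of the gene or more of all others, and these cannot be told apart.

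The sequences that follow are those of the transcripts that fell in both pools of KO oocytes, or rose in both, so that they stand beside the values given later. CCUCUC is the hexamer that the study names as most enriched at sites bound by LSM14B. It was searched for as CCTCTC on the sense strand of the longest coding GENCODE M21 transcript with a RefSeq mRNA of each gene (the longest coding one where there is none). It occurs in 25 of the 77 genes (32.5%) at 0.247 sites per kb of transcript, and in 62.5% of 19787 coding genes of the table at 0.439 per kb. Mitochondrial ribosomal transcripts are short, with a median of 1226 bases against 2578 bases. Of the 35 sites, 19 lie in 3′ UTRs, 9 in 5′ UTRs and 7 in coding sequence. Among the 9 genes called lower in both pools, *Mrps7*, *Mrpl40* and *Mrps12* hold the hexamer, and *Mrps6*, which was higher in both, holds 1 site. They are shown 5′ to 3′ in capitals with 9 bases on either side, and the coordinates (GRCm38) are those of the 6 bases. The *Mrps7* sites lie in the coding sequence (the first) and in the 3′ UTR, and those of *Mrpl40*, *Mrps12* and *Mrps6* lie in the 5′ UTR.
Mrps7 chr11:115606827-115606832 + strand: gtccccgtgCCTCTCgctgaccga
Mrps7 chr11:115607437-115607442 + strand: gcaaaactgCCTCTCacacagtga
Mrps7 chr11:115607517-115607522 + strand: cccctccaaCCTCTCaaagacaga
Mrpl40 chr16:18876643-18876648 - strand: gcgggcccgCCTCTCggaatccca
Mrps12 chr7:28741728-28741733 - strand: cagatctctCCTCTCtcctcagtt
Mrps6 chr16:92058355-92058360 + strand: ggccgtgttCCTCTCtcgtcttcc

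Nuclear genes for mitochondrial proteins are known targets of factors of the ETS family, NRF1 and YY1. RefSeq promoters (GRCm38.p6, from 250 bases before to 50 after the start) were matched for 68 of the 77 genes. CCGGAAG, the core read by ETS factors, was found on either strand in 36.8% of these genes and in 9.93% of 27025 genes with a promoter in the table. The YY1 core AAGATGGC was in 17.6% against 3.19%, and the NRF1 core GCATGCGC in 11.8% against 3.05%. Both strands were searched, and a gene was counted once whatever its number of matches, which may overlap. A match in the sequence does not show that a factor binds there. Each of the 9 genes called lower in both pools has a promoter in the table, and 3 hold the ETS core, 3 the YY1 core and 1 the NRF1 core. They are shown 5′ to 3′ on the strand of the gene with up to 10 bases on either side, and the coordinates are those of the run printed. In order, the first 3 carry the ETS core, the next 3 the YY1 core and the last the NRF1 core, each in capitals, and *Mrps12* holds the YY1 core as its reverse complement.
Mrps18a chr17:46110968-46110994 + strand: cacccctgctCCGGAAGcggaagtgca
Mrps12 chr7:28741804-28741830 - strand: aggaggaaccCCGGAAGgggctggagg
Mrpl57 chr14:57826233-57826259 + strand: cccagagagaCCGGAAGcagcgcgccg
Mrps18a chr17:46111005-46111032 + strand: ggtgcgttccAAGATGGCggccctcagg
Mrps7 chr11:115604148-115604175 + strand: gacagcggccAAGATGGCtgcccccgcg
Mrps12 chr7:28742003-28742030 - strand: catggacgcaGCCATCTTggagtggaaa
Mrpl10 chr11:97041438-97041465 + strand: ccagctccacGCATGCGCatagcggccc

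The 77 genes lie on 17 chromosomes, with 10 on chromosome 11 and 8 on chromosome 17. Their proteins are small, and 85.7% have a coding sequence under 1000 bases, against 40.1% of all coding genes of the table. Annotated exons of 32 of the 77 overlap an exon of another gene, 18 of them over more than 10% of their exonic bases. The sources do not state a strand-specific count, so reads in the shared part could be given to either gene.

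Levels of single genes spanned a wide range around a median of 22.2 FPKM (mean of the 12 libraries, per length). A mean of 100 FPKM or more was reached by 7 genes, 11 had 50 to 100 FPKM, 41 had 5 to 50 FPKM and 18 had under 5 FPKM. No gene was at 0 in all 12 libraries, and 69 were above 0 in each. The highest mean was that of *Mrpl14*, whose protein sits at the face where the subunits meet, with 587, 476 and 451 FPKM in WT RNP, 553, 526 and 579 in KO RNP, 364, 306 and 221 in WT polysomes and 169, 156 and 160.2 in KO polysomes. Each KO polysome library thus lay below each of the 9 others. *Mrpl34* followed with 327, 245 and 276 FPKM in WT RNP, 281, 289 and 329 in KO RNP, 446, 431 and 264 in WT polysomes and 379.9, 277 and 270.0 in KO polysomes, and the ranges of these groups overlapped. *Mrpl32*, which is trimmed by a protease after import, had 343 ± 53.4 FPKM in WT RNP, 325 ± 37.0 in KO RNP, 269 ± 56.9 in WT polysomes and 226 ± 40.9 in KO polysomes (SD, n = 3). *Mrpl9* came next at 196 ± 18.1, 277 ± 13.4, 148 ± 12.3 and 178 ± 43.1 FPKM in the same order (SD, n = 3), and *Mrps6* after it, with values given below. The order of the first 3 was not the same in each group, since *Mrpl34* was above *Mrpl14* in WT and KO polysomes and below *Mrpl32* in RNP of both genotypes by the group means. Between *Mrpl34* and *Mrpl32* the libraries overlapped in each group except KO polysomes, where *Mrpl34* was higher.

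At the other end stood *Mrps18c*, *Mrpl23*, *Mrps34*, *Mrpl39* and *Mrpl1*. *Mrps18c*, which encodes 1 of the 3 relatives of a single bacterial protein, was listed at 0 in 10 libraries and at no more than 0.600 FPKM in the others. *Mrpl23* was likewise listed at 0 in 10 libraries, with a highest value of 0.768 FPKM. *Mrps34*, whose exons overlap *Nme3* and *Mapk8ip3* over 77.8% of their bases, was at 0 in 7 libraries and reached 3.31 FPKM. A value of 0 in an FPKM table can also be a failed estimate, so it does not show that a subunit is missing. *Mrpl39* ranged from 0 to 2.59 FPKM and *Mrpl1* from 0.353 to 2.91 FPKM. Of the other relatives, *Mrps18b* had 23.2 ± 6.85 FPKM in WT and 31.1 ± 4.59 in KO polysomes (SD, n = 3) and *Mrps18a* was among the genes that fell.

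**Figure D1:**
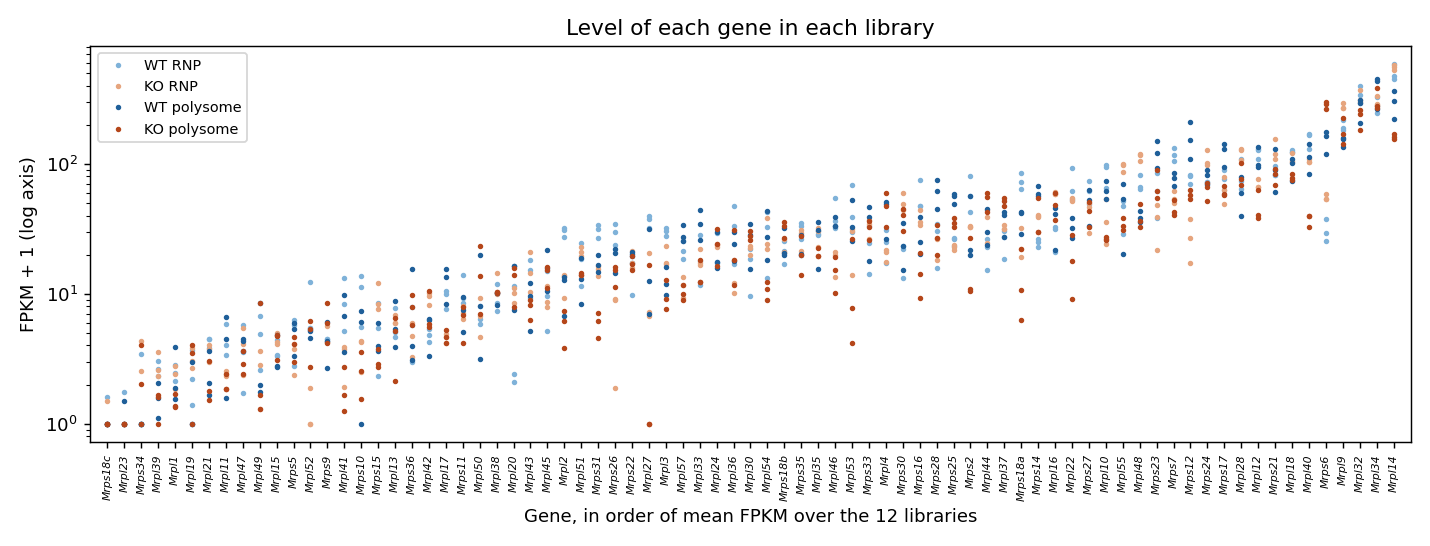
FPKM + 1 on a log axis for each of the 77 genes (horizontal axis, in order of the mean over 12 libraries), with 1 point per library, colored by genotype and pool. *Mrps18c* and *Mrpl23* sit lowest and *Mrpl14* is highest.

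KO and WT polysomes were compared to ask which transcripts the loss of LSM14B left at another level among ribosome-bound mRNA. Mitochondrial ribosomal transcripts were mostly lower in KO polysomes: 52 of the 71 tested (73.2%) changed by less than 0, against 44.3% of 9536 genes. Of the 71, 14 were called lower, where 4.73% of all genes were, and 1 was called higher, where 5.64% of all genes were. The median change of the 71 was -0.31, with quartiles at -0.95 and 0.14, and that of all genes was 0.10, with quartiles at -0.42 and 0.57. The 6 genes left out for low values were *Mrpl1*, *Mrpl23*, *Mrpl39*, *Mrpl49*, *Mrps18c* and *Mrps34*. The summed FPKM of the 77 genes was 3141, 3456 and 3874 in the WT polysome libraries and 2665, 2689 and 2748 in the KO ones, taken from lowest to highest, a ratio of means of 0.774. These groups did not overlap, and an exact permutation test gave a two-sided p of 0.1, the smallest that 3 libraries against 3 allow. Without the 5 genes of highest mean, the ratio was 0.688.

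**Figure D2:**
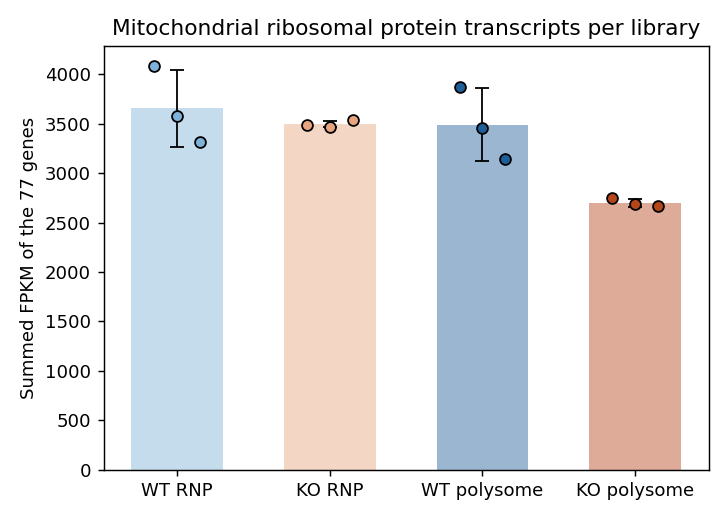
Summed FPKM of the 77 genes in each library (points), with the mean (bar) and SD (line) of each group of 3. The KO polysome libraries, at 2665 to 2748, lie below the 9 libraries of the other groups, which start at 3141.

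The stalk of the large subunit, which brings translation factors to the ribosome, is built on the products of *Mrpl10* and *Mrpl12*, and both transcripts fell. *Mrpl10*, on chromosome 11 of GRCm38 from 97041560 to 97049213, had 52.8, 73.1 and 61.2 FPKM in WT polysomes and 25.0, 25.4 and 26.2 in KO polysomes for replicates 1, 2 and 3. The groups were far apart and the KO libraries nearly equal, and the change on the log2 scale was -1.24 with a standard error (SE) of 0.20 and a limma adjusted p of 0.00885. *Mrpl12*, whose protein is also known to bind the mitochondrial RNA polymerase, had 133, 93.2 and 96.4 FPKM in WT and 61.6, 39.7 and 37.0 in KO polysomes, a change of -1.22 (SE 0.24, limma adjusted p = 0.0163). Short stretches of both transcripts, 14.1% and 13.1% of exonic bases, overlap antisense genes.

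Other large-subunit transcripts fell as well. *Mrpl40*, on chromosome 16 of GRCm38 from 18872018 to 18876862, had 142, 81.8 and 111 FPKM in WT and 31.6, 38.6 and 38.6 in KO polysomes. No KO library came near the lowest WT one, and the change was -1.57 (SE 0.23, limma adjusted p = 0.00564). *Mrpl57* had 24.7, 26.1 and 32.8 against 8.99, 10.7 and 7.87 FPKM, a change of -1.50 (SE 0.28, limma adjusted p = 0.0138). *Mrps18a*, the relative of a bacterial small-subunit protein that joined the large subunit, had 40.7, 27.7 and 41.2 against 5.26, 21.3 and 9.61 FPKM. Its KO libraries spread from 5.26 to 21.3 FPKM, and the change of -1.70 (SE 0.45, limma adjusted p = 0.0471) was close to the threshold. *Mrpl54* changed by -1.39, *Mrpl46* by -1.29, *Mrpl33* by -1.28 and *Mrpl14* by -0.85, with adjusted p of 0.0472, 0.0293, 0.0334 and 0.0229 from limma. In each of these genes every KO library lay below every WT library.

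In the small subunit, *Mrps12*, whose protein forms part of the decoding site, had 209.7, 153 and 109 FPKM in WT and 62.2, 56.1 and 52.9 in KO polysomes, a change of -1.40 (SE 0.23, limma adjusted p = 0.00974). *Mrps31* had 15.7, 13.6 and 18.9 against 3.57, 5.21 and 6.06 FPKM, a change of -1.53 (SE 0.36, limma adjusted p = 0.0308). *Mrps28* had 74.0, 61.3 and 43.8 against 19.0, 25.8 and 32.9 FPKM, a change of -1.18 (SE 0.28, limma adjusted p = 0.0322). The KO libraries of each were below all WT ones. *Mrps17* changed by -0.97 and *Mrps7*, an early binder of the small-subunit rRNA, by -0.77, with adjusted p of 0.0171 and 0.0363 from limma.

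The single gene called higher was *Mrps6*, on chromosome 16 of GRCm38 from 92058270 to 92112227. It had 163, 175 and 118 FPKM in WT and 263, 288 and 297 in KO polysomes, without overlap, a change of 0.91 (SE 0.16, limma adjusted p = 0.0124). Its exons overlap those of *Slc5a3* and *Gm49711* on the same strand over 19.9% of its exonic bases. *Slc5a3* itself was listed between 0 and 3.43 FPKM over the 12 libraries.

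By structure, 5 of 28 tested large-subunit genes with a bacterial counterpart and 4 of 18 without one were called lower. In the small subunit it was 4 of 16 with a counterpart, beside *Mrps6*, and 1 of 8 without one. Of all genes, 4.73% were called lower. The medians of these 4 classes were -0.32, -0.13, -0.53 and -0.325, each below the median of all genes. *Mrps36*, the gene that encodes no ribosomal subunit, had 2.95, 2.07 and 14.4 FPKM in WT and 4.78, 8.83 and 6.97 in KO polysomes, overlapping groups with a change of 0.42 that was not called (adjusted p = 0.722 from limma). The number of called genes depended on single libraries. It was 15 with all 6 libraries, and 9 (8 lower) without WT replicate 3, 7 (6 lower) without KO replicate 2 and 5 (all lower) without KO replicate 3. *Mrpl10*, *Mrpl40* and *Mrps12* were called whichever library was left out. Without KO replicate 2, the library that stood apart, *Mrpl12* had an adjusted p of 0.0636, *Mrps31* of 0.0908, *Mrps28* of 0.0957, *Mrpl54* of 0.103 and *Mrpl14* of 0.0816 from limma, and *Mrpl33*, *Mrpl46*, *Mrps17* and *Mrps7* also lost their call. *Mrps18a* was called in 1 of the 6 fits with a library left out, *Mrpl54* in 1 and *Mrpl33* in 1. Each of the 15 kept its sign in each alternative.

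The same comparison in the RNP pool, which holds the light fractions of the gradient, gave calls in both directions. Of 75 genes tested, 18 were called lower, against 10.2% of all 9931 genes, and 10 were called higher, against 10.5%. As a share, 24.0% and 13.3% of the 75 were called. The median change was -0.07 and that of all genes 0.05, and 40 of the 75 (53.3%) were below 0, against 46.7% of all genes. The summed FPKM ranged from 3311 to 4084 in WT RNP and from 3472 to 3537 in KO RNP, so the KO libraries lay within the range of the WT ones. Without the 5 genes of highest mean the genotypes did not overlap. No KO library then summed to more than 2005 FPKM, and no WT library to less than 2073. The ratio of means was 0.865 without these genes and 0.957 with them. An exact permutation test gave two-sided p of 0.1 and 0.7 in the same order. Between 19 and 24 genes were called when single libraries were left out, and 15 of the 28 were called each time.

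Among the genes that fell, the largest changes were those of *Mrpl52*, *Mrps26* and *Mrpl27*. *Mrpl52* had 4.49, 4.43 and 11.2 FPKM in WT RNP and 0, 0 and 0.890 in KO RNP. Its WT values correspond to an estimated 6.5 to 15.9 fragments only. The change of -2.53 (SE 0.47, limma adjusted p = 0.00556) was called without each of the KO libraries. Without any WT library the gene fell under the filter and could not be tested. It passed the filter through its WT libraries alone, so it could only be lower. *Mrps26* had 22.7, 29.0 and 33.3 against 0.890, 8.02 and 8.14 FPKM, a change of -2.43 (SE 0.55, limma adjusted p = 0.0143), and KO replicate 1 was well below the other KO libraries. *Mrpl27*, near the site of peptide bond formation, had 31.3, 38.5 and 36.3 against 5.78, 19.5 and 6.20 FPKM, a change of -1.86 (SE 0.39, limma adjusted p = 0.0106), in which KO replicate 2 stood above the other KO libraries. All 3 kept apart from the WT libraries.

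The stalk genes fell in RNP too. *Mrpl10* had 97.7, 63.8 and 94.0 FPKM in WT RNP and 53.1, 34.7 and 23.1 in KO RNP, a change of -1.24 (SE 0.29, limma adjusted p = 0.0153). *Mrpl12* had 128, 129 and 107 against 65.5, 75.8 and 65.4 FPKM, a change of -0.81 (SE 0.13, limma adjusted p = 0.0029). In both genes no KO library reached a WT one, and the *Mrpl12* libraries of each genotype were tight. *Mrpl2* and *Mrpl3*, which encode proteins of the core around the site of peptide bond formation, changed by -1.31 and -0.67 (adjusted p = 0.00417 and 0.0438 from limma), *Mrpl2* from 29.7, 31.3 and 26.4 to 12.8, 12.9 and 8.35 FPKM. *Mrps18a* had 84.8, 63.4 and 70.9 FPKM in WT RNP and 31.0, 21.1 and 18.1 in KO RNP, and its change of -1.63 (SE 0.22, limma adjusted p = 0.00116) was steadier here than in polysomes. *Mrps12* had 69.1, 79.2 and 81.6 against 25.9, 16.4 and 36.4 FPKM, a change of -1.58 (SE 0.26, limma adjusted p = 0.003). The other genes called lower were *Mrpl41*, *Mrps10*, *Mrpl46*, *Mrps7*, *Mrps31*, *Mrpl17*, *Mrpl57*, *Mrps2* and *Mrpl40*, with changes from -1.46 to -0.56.

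The genes that rose in RNP were led by *Mrps30*, a large-subunit gene in spite of its name, on chromosome 13 of GRCm38 from 118378381 to 118387252. It had 21.1, 12.2 and 22.5 FPKM in WT RNP and 43.0, 58.8 and 48.4 in KO RNP, a change of 1.41 (SE 0.25, limma adjusted p = 0.00434). In polysomes its groups were 34.1, 14.3 and 22.4 and 39.5, 44.2 and 29.3 FPKM, which overlapped, and the change of 0.71 was not called (adjusted p = 0.213 from limma). *Mrpl55* had 50.4, 27.6 and 46.6 FPKM in WT RNP and 97.1, 85.7 and 98.0 in KO RNP, a change of 1.20 (SE 0.22, limma adjusted p = 0.00512). *Mrpl16* had 30.3, 31.9 and 19.9 against 57.5, 59.9 and 57.6 FPKM, with 3 nearly equal KO libraries, a change of 1.09 (SE 0.20, limma adjusted p = 0.00493). *Mrpl42*, *Mrps6*, *Mrpl48*, *Mrps14*, *Mrps24*, *Mrps21* and *Mrpl9* rose by smaller amounts, from 0.95 down to 0.50. *Mrpl9*, with 216, 189 and 182 against 269, 292 and 269 FPKM, is the most abundant of these.

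The 2 pools were sequenced as different libraries, and their changes were set side by side. Both pools may come from the same lysates, so a change seen in both is not an independent replication. Of the 71 genes tested in both, 9 were called lower in both, which is 64.3% of the 14 lower in polysomes and 50.0% of the 18 lower in RNP. Among all 9100 genes tested in both pools, the shared calls were 68.8% of those lower in polysomes and 32.1% of those lower in RNP. None of the 71 was called in opposite directions, and 5 of the 9100 were, so a count of 0 says nothing particular about these genes. The 9 are *Mrps18a*, *Mrpl40*, *Mrps31*, *Mrpl57*, *Mrps12*, *Mrpl46*, *Mrpl10*, *Mrpl12* and *Mrps7*, which are 6 genes of the large and 3 of the small subunit, and *Mrps6* was called higher in both. The polysome call of *Mrpl10*, *Mrpl40* and *Mrps12* held with each single library left out, and that of the other 6 did not. The changes in the 2 pools had a Pearson correlation of 0.625 over the 71 genes and 0.610 over all 9100, a description across genes, which share their libraries.

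Several of the 9 show the size of this shared fall. *Mrps7* had 116, 104 and 132 FPKM in WT RNP and 48.5, 52.2 and 60.5 in KO RNP, a change of -1.11, and 66.5, 83.7 and 77.3 against 51.3, 41.9 and 39.2 in polysomes, a change of -0.77. *Mrps31* had 32.9, 30.4 and 25.9 against 12.7, 14.5 and 15.4 FPKM in RNP, with changes of -1.02 there and -1.53 in polysomes. *Mrpl46* had 53.9, 35.0 and 31.0 against 12.5, 18.9 and 19.8 FPKM in RNP and 32.2, 37.7 and 32.4 against 18.0, 9.05 and 14.2 in polysomes. The KO libraries lay below the WT ones in each of these 6 contrasts. *Mrpl46* and *Mrps11* are neighbors on opposite strands that share 12.2% of the exonic bases of *Mrpl46*. *Mrpl40* fell less in RNP, with 168, 166 and 129.6 against 108, 102 and 102 FPKM and a change of -0.56, than in polysomes, where it was -1.57, and this difference was not called (adjusted p = 0.151 from limma for the ratio). *Mrpl57* had 20.4, 17.5 and 24.4 against 10.6, 8.26 and 12.5 FPKM in RNP, a change of -0.93.

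**Figure D3:**
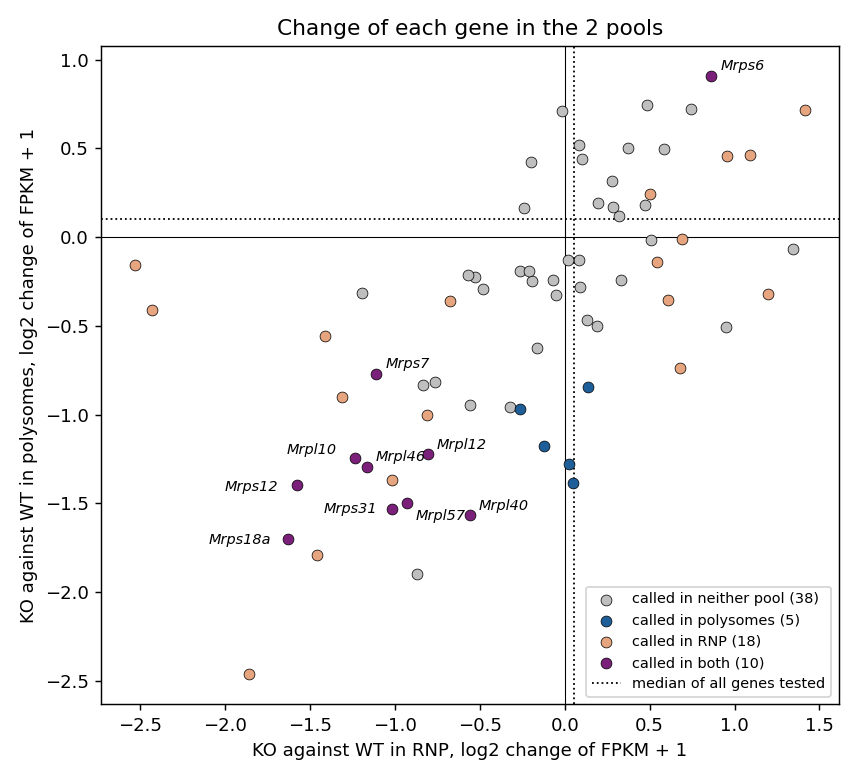
Change between KO and WT in RNP (horizontal axis) and in polysomes (vertical axis), both as log2 change of FPKM + 1, for the 71 genes tested in both pools. The 10 genes called in both pools are named, 9 of them at the lower left and *Mrps6* at the upper right, and the dotted lines mark the medians of all genes, 0.05 and 0.10.

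**Figure D4:**
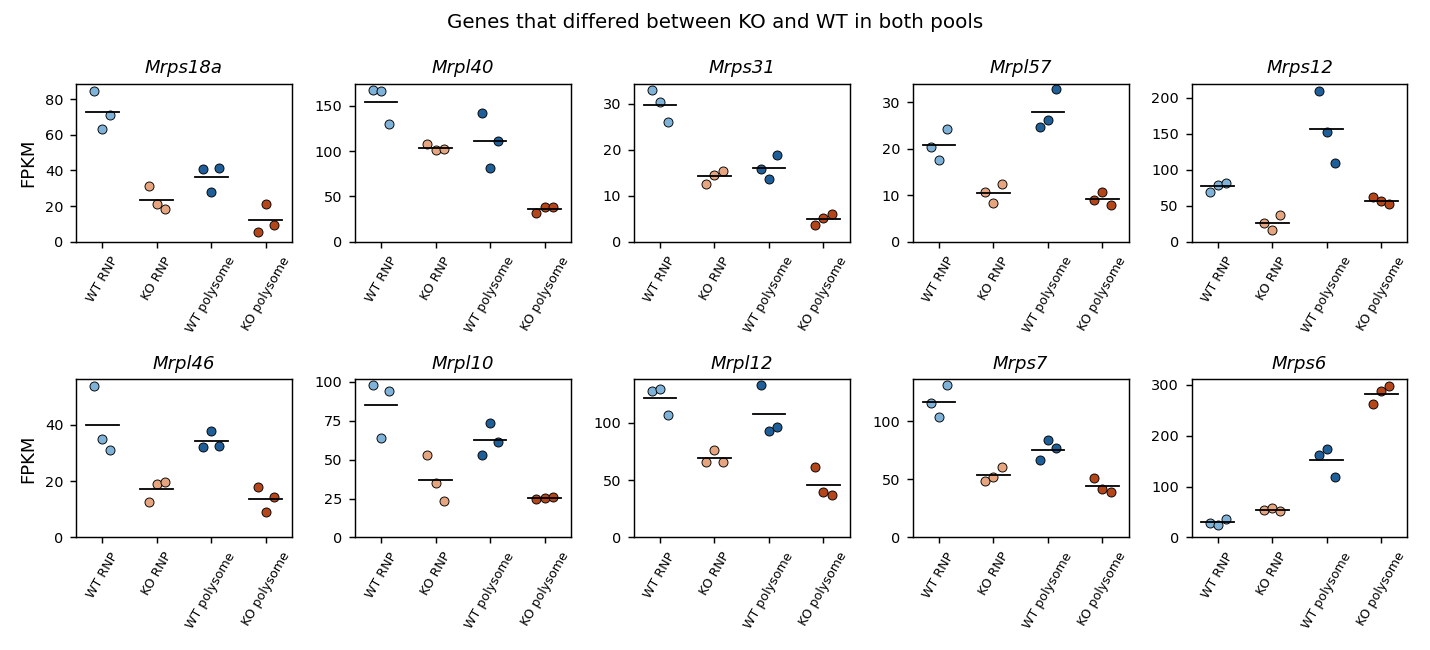
FPKM of the 10 genes called in both pools, with 1 point per library and a line at the mean of each group of 3. In each panel the KO points of a pool do not overlap its WT points.

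Whether the genotypes differ in the polysome-to-RNP ratio was tested with all 12 libraries in an interaction term for genotype and pool. None of 75 genes was called, where 0.237% of all 10949 genes were, and 13 had an unadjusted p under 0.05, 2 higher and 11 lower, where 11.1% of all genes had such a p. The call of 0 was the same in limma without a trend and with each change of filter, pseudocount or scaling. The median change of the ratio was -0.20 and that of all genes 0.04, with 50 of 75 (66.7%) below 0 against 47.6% of all genes. When single libraries were left out, at most 1 gene was called, *Mrpl55* without WT polysome replicate 2, *Mrpl14* without WT polysome replicate 3 and *Mrps14* without KO polysome replicate 2, which is the library that stood apart. With all libraries, these ratios changed by -1.52, -0.99 and -1.42, with adjusted p of 0.271, 0.106 and 0.103 from limma. The stalk genes *Mrpl10* and *Mrpl12* had ratio changes of -0.01 and -0.42, with standard errors of 0.37 and 0.28. The median standard error of the 75 ratio changes was 0.46, against 0.34 for the polysome and 0.28 for the RNP comparison, so only larger differences could be seen in the ratio.

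The pools were also compared within each genotype, which asks whether the level of a transcript within its pool differed between polysomes and RNP. FPKM is scaled within each library, so equal levels do not mean an even split of a transcript between the pools. In WT oocytes, 5 of 74 genes were called higher in polysomes, against 7.97% of all 9574 genes, and 7 lower, against 6.72%, with a median of -0.13 against -0.09 for all genes. In KO oocytes, 7 of 74 were called higher, against 15.5% of all 9851 genes, and 19 lower, against 13.8%, with a median of -0.34 against -0.05. These comparisons use the same libraries as those between genotypes. *Mrps6* had the largest rise in both, with 28.2, 24.4 and 36.9 FPKM in WT RNP and 163, 175 and 118 in WT polysomes, and 53.0, 57.8 and 52.6 in KO RNP and 263, 288 and 297 in KO polysomes. It was higher in polysomes by 2.31 (SE 0.22, limma adjusted p = 0.000384) in WT and by 2.35 (SE 0.11, limma adjusted p = 1.42e-06) in KO, and its ratio differed between genotypes by 0.04 (adjusted p = 0.97 from limma). In WT, the count of called genes was 5 without WT RNP replicate 1, 2 or 3, and *Mrps6*, *Mrps14* and *Mrps25* were called whichever library was left out.

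*Mrps14* had 25.4, 24.1 and 21.8 FPKM in WT RNP and 58.1, 55.6 and 66.6 in WT polysomes, a difference of 1.30 (SE 0.20, limma adjusted p = 0.00376). In KO it had 38.6, 38.1 and 39.2 and 28.7, 53.4 and 29.1 FPKM, which overlapped, and the difference was -0.12 (SE 0.24, limma adjusted p = 0.75). *Mrps28* was at 25.8 ± 9.71 FPKM in WT RNP, 59.7 ± 15.1 in WT polysomes, 22.8 ± 4.97 in KO RNP and 25.9 ± 6.96 in KO polysomes (SD, n = 3). It was called higher in polysomes in WT and not in KO, and the ratio change of -1.06 was not called (adjusted p = 0.401 from limma). *Mrps12* and *Mrps25* were called higher in polysomes in both genotypes, *Mrps12* by 0.98 and 1.16 and *Mrps25* by 1.11 and 0.65. Exons of *Nr2c2* overlap 69.8% of the exonic bases of *Mrps25*, so its values are uncertain. All 5 genes called higher in WT polysomes are small-subunit genes, and the 7 called lower were *Mrpl2*, *Mrpl3*, *Mrpl22*, *Mrps18a*, *Mrpl48*, *Mrpl14* and *Mrps7*, of which all except *Mrps7* belong to the large subunit. In KO, 1 large-subunit gene with a bacterial counterpart and 2 without one were called higher, and 9 and 4 lower. Of small-subunit genes in KO, 2 and 2 were called higher, and 5 and 1 lower, in the same order. Without WT RNP replicate 1, 0 genes were called lower in WT polysomes. *Mrps12* and *Mrps28* were each called in WT in 2 of the 6 fits with a library left out. The difference between the subunits was not tested.

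*Mrpl14*, the most abundant gene, differed between polysomes and RNP by -0.78 (SE 0.19, limma adjusted p = 0.0258) in WT and by -1.77 (SE 0.09, limma adjusted p = 2.21e-06) in KO. *Mrpl22*, which lines the exit tunnel, had 91.6, 60.4 and 51.4 FPKM in WT RNP and 26.0, 37.5 and 30.8 in WT polysomes, and 50.9, 53.9 and 52.9 and 27.1, 8.10 and 16.8 in KO. Its differences were -1.06 and -1.69, both called. *Mrpl48* had 69.7 ± 9.93 FPKM in WT RNP and 38.1 ± 4.16 in WT polysomes, and 113 ± 7.45 and 38.3 ± 8.47 in KO (SD, n = 3), so the polysome means lay close together while the RNP level was higher in KO. A named pseudogene of *Mrpl48* may share its reads. *Mrpl55* had a like pattern in KO, with 97.1, 85.7 and 98.0 FPKM in RNP and 37.0, 30.0 and 32.0 in polysomes, a difference of -1.48 (SE 0.14, limma adjusted p = 9.36e-05), while its WT polysome values of 68.6, 19.4 and 52.2 FPKM spread over its WT RNP values. *Mrps15*, *Mrps16*, *Mrpl40*, *Mrps31* and *Mrpl54* were also called lower in KO polysomes than in KO RNP, with differences from -1.57 to -1.36. *Mrpl52*, *Mrpl4*, *Mrps23* and *Mrpl37* were called higher there, by 1.85, 1.17, 0.97 and 0.66. Of these, *Mrpl4* had 20.1, 20.7 and 16.5 FPKM in KO RNP and 58.6, 46.0 and 31.8 in KO polysomes, without overlap. *Mrpl52* rests on few fragments, at most 7.5 in a KO library. It passed the filter through its KO polysome libraries alone, so it could only be higher in polysomes.

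**Figure D5:**
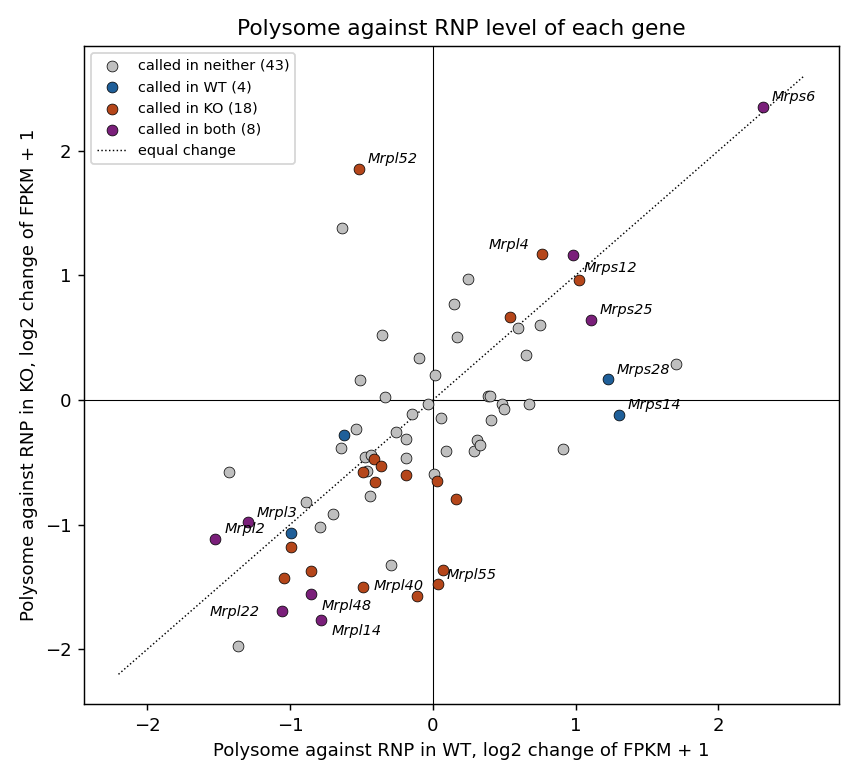
Difference between polysome and RNP pools in WT (horizontal axis) and KO (vertical axis), as log2 change of FPKM + 1, for the 73 genes tested in both genotypes, with the dotted line at equal change. *Mrps6* lies at the upper right with 2.31 and 2.35, and 8 genes were called in both genotypes, 4 in WT alone and 18 in KO alone.

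Transcripts of other parts of the same machinery were taken from lists written from background knowledge. Of 6 mitochondrial ribosomal proteins with other symbols, 2 were called lower in KO polysomes, where 4.73% of all genes were. *Gadd45gip1*, a large-subunit protein, had 198, 162 and 158 FPKM in WT and 123, 66.2 and 86.4 in KO polysomes, a change of -0.94 (SE 0.23, limma adjusted p = 0.0342). In RNP it had 487, 428 and 381 against 251, 269 and 307 FPKM, a change of -0.64 (SE 0.11, limma adjusted p = 0.00454), so no KO library reached a WT one in either pool. *Ict1*, which frees peptides from stalled mitochondrial ribosomes, had 34.0, 34.6 and 23.9 against 17.2, 11.6 and 10.7 FPKM in polysomes, a change of -1.17 (SE 0.29, limma adjusted p = 0.0396), and was not called in RNP. The median of the 6 was -0.225 in polysomes and 0.19 in RNP.

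Of 23 assembly factors in the table, 1 of 19 tested was called lower in KO polysomes, against 4.73% of all genes. In RNP 2 of 20 were called lower, against 10.2% of all genes, and 2 higher, against 10.5%. These counts are near those shares. *Gtpbp10*, a GTPase of large-subunit assembly, had 22.7, 29.2 and 10.2 FPKM in WT and 2.22, 0.0703 and 2.37 in KO polysomes, a change of -3.14 (SE 0.60, limma adjusted p = 0.0141), and fell by 2.25 in RNP. *Mettl15*, a methyltransferase of the small-subunit rRNA, changed in RNP by -1.50 (SE 0.34, limma adjusted p = 0.0147). *Malsu1* and *Nsun4* were called higher in RNP, *Malsu1* with 23.3, 11.7 and 11.0 FPKM in WT and 30.4, 36.4 and 40.6 in KO. The median of the assembly factors was -0.04 in polysomes and 0.21 in RNP.

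Translation factors of the mitochondrion gave no call between genotypes in limma, with 10 tested in polysomes, 11 in RNP and medians of 0.02 and -0.10. An unadjusted p under 0.05 was found for 0 and 1 of them, and for 26.3% and 34.1% of all genes. Of 11 genes of mitochondrial transcription and RNA stability, 7 were tested in each pool. Of all genes, 4.73% were called lower in polysomes and 10.2% in RNP. In this list *Mterf1a* alone was called, lower in both. It ranged from 12.1 to 16.9 FPKM in WT RNP and from 0 to 1.61 in KO RNP, a change of -3.29 (SE 0.41, limma adjusted p = 0.000888). In polysomes it had 2.92, 7.25 and 5.77 against 0, 0 and 0.188 FPKM, where the KO libraries were at or near 0. It passed the filter there through its WT libraries alone, so it could only be lower. *Mterf1a* has a close copy, *Mterf1b*, with which it can share reads. Genes of mitochondrial DNA were not analysed here.

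Cytosolic ribosomal proteins and Nduf genes, which encode subunits of complex I of the respiratory chain, were set beside the 77. Of 43 cytosolic ribosomal protein genes tested in polysomes 0 were called by limma and 2 had an unadjusted p under 0.05, with a median change of 0.19, and in RNP 12 of 47 were called higher and 1 lower, with a median of 0.45. Of 34 Nduf genes tested in polysomes 0 were called by limma and 2 had an unadjusted p under 0.05, with a median of -0.055. In RNP 3 of 32 were called higher and 1 lower, with a median of 0.40. Of all genes, 5.64% were called higher and 4.73% lower in polysomes, and 10.5% and 10.2% in RNP. An unadjusted p under 0.05 from limma was found for 26.3% of all genes in polysomes. The mitochondrial ribosomal genes, with medians of -0.31 and -0.07, lay below both lists in either pool. A low median was not theirs alone. The 7 tested genes of mitochondrial transcription and RNA stability had lower medians, -0.57 in polysomes and -0.46 in RNP. In polysomes and RNP, 43 and 47 of the 76 cytosolic genes passed the filter, and 34 and 32 of the 37 Nduf genes. The cytosolic medians therefore describe only part of that list. In the polysome-to-RNP ratio all 3 lists had medians below that of all genes (0.04), at -0.20 for the mitochondrial ribosomal genes, -0.35 for the cytosolic ones and -0.56 for the Nduf genes. Differences between the lists were not tested.

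Features that the choice of genes did not use were set against the changes, as a description over genes that share their libraries. In polysomes the change had a Spearman correlation of 0.255 with coding length and -0.110 with mean FPKM over 71 genes, and in RNP of 0.068 and 0.101 over 75 genes. Genes with a CCTCTC site had a median polysome change of -0.25 over 23 genes, and those without one a median of -0.34. In RNP the medians were -0.08 over 25 genes with a site and -0.06 over those without.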

How the data were processed

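Polysome and RNP pools of GV oocytes were sequenced in 12 libraries, 3 for each genotype and pool, and grouped by the labels. Per the submitters' notes and the study's methods, the authors aligned 150 bp paired reads to mm10 with TopHat2 2.0.13 and computed FPKM with Cufflinks 2.2.1, and they deposited FPKM per gene as 1 table, which holds no counts. That table also holds 54 columns of the authors' own comparisons, which were not used. Reference coordinates came from GENCODE M21 (GRCm38, the same build as mm10) and promoters from RefSeq.

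Genes that reached an FPKM of 1 in 3 or more of a comparison's libraries were tested with limma 3.58.1 (R 4.3.3, eBayes with an intensity trend) on log2(FPKM + 1), without a replicate block. This scale understates changes of low genes. Benjamini-Hochberg adjustment ran over all genes tested, with a threshold of 0.05. The fit was tested on simulated data. Tables were handled in Python 3.11.15 with pandas 2.3.3 and numpy 2.4.6, and plots drawn with matplotlib 3.10.9. Depth was estimated from the steps between low FPKM values, taking a transcript's length less 200 bases as its effective length. At this depth the median gene of the family had an estimated 150.8 fragments a library, and 11 of the 77 had a median under 20, for which values are imprecise. Alternatives were the pseudocount, the filter, the scaling, the trend, a replicate block and the omission of each library.

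The members and lists were chosen with earlier results of these data known. The rule for named genes took every called gene of a comparison up to 12, otherwise the 6 largest changes in each direction, the 5 highest and 5 lowest levels, and 8 genes by role. Other genes named complete the counts of called genes and were chosen after their values were seen. Lists held mitoribosomal subunits by structure and under other symbols, assembly factors, translation factors, mitochondrial transcription and RNA stability, cytosolic ribosomal proteins, complex I subunits, and markers of oocytes, granulosa and cumulus cells and other somatic cells. Summed FPKM of the oocyte markers was 6974 to 7397 in WT RNP, 8954 to 9157 in KO RNP, 23779 to 25296 in WT polysomes and 28489 to 31074 in KO polysomes. That of the other somatic markers was 14.4 to 42.9 in all libraries.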

Additional observations from a re-analysis of the deposited data

Results flagged for a closer look

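For *Mrps14*, which encodes a small-subunit protein with a bacterial counterpart, the KO libraries lay all below the WT ones in polysomes and all above them in RNP. The gene was found by a search of the 77 for KO libraries on opposite sides of WT in the pools, and it alone showed this. How often this pattern occurs among all genes was not counted. In polysomes the KO libraries had 28.7, 53.4 and 29.1 FPKM, all below the WT libraries at 58.1, 55.6 and 66.6 FPKM, and this change of -0.74 was not called (adjusted p = 0.117 from limma). In RNP the KO libraries had 38.6, 38.1 and 39.2 FPKM, all above the WT libraries at 25.4, 24.1 and 21.8 FPKM, a change of 0.68 that was called (adjusted p = 0.0158 from limma). The difference between the 2 changes, tested as the interaction of genotype and pool with limma, was -1.42 on the log2(FPKM + 1) scale (standard error 0.31, unadjusted p = 0.000555, adjusted p = 0.103), so it did not pass the threshold over all genes. It passed with 1 of the 12 libraries left out, KO polysome replicate 2 (-1.71, adjusted p = 0.0393), whose 53.4 FPKM lies closest to WT, so that the difference had to grow without it. With each of the other 11 left out it did not pass, at -1.47 to -1.27 with adjusted p of 0.104 to 0.253.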

How the results depend on the processing

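With 3 libraries a group and no counts, low genes are imprecise, and counts of called genes depended on single libraries and on the variance model. The number of genes of the family called between KO and WT in polysomes, 15 in the fit reported, was 6 without a filter, 9 with the replicate block, 4 in limma without a trend and 5 to 10 when single libraries were left out. In RNP, 28 became 18 without a trend, and 19 to 24 when libraries were left out. For the ratio the count was 0 to 1 when libraries were left out. For polysome against RNP in WT, 12 became 7 without a filter, 5 without a trend and 5 to 12 when libraries were left out, and in KO 26 became 18 to 25 when libraries were left out. More genes were tested without a filter, and the cause of the other changes was not tested.

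The median change of the family less that of all genes stayed below 0 in polysomes (-0.543 to -0.368 when libraries were left out), RNP (-0.259 to -0.089) and the ratio (-0.334 to -0.193). For the pools of WT it was -0.039 and ran from -0.158 to 0.043, above 0 without WT RNP replicate 1 (0.043) and without WT polysome replicate 2 (0.033). For the pools of KO it was -0.295, and -0.352 and -0.222 with pseudocounts of 0.1 and 5, -0.375 with a filter at 5 FPKM and -0.320 to -0.233 when libraries were left out; the cause was not tested.

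An alternative chosen after seeing the data left out the genes whose exons overlap another gene. The called genes then numbered 8 in polysomes, 16 in RNP, 6 for the pools of WT and 17 for those of KO, fewer genes being counted. Their median change less that of all genes was 0.126 for the pools of WT, a reversed sign, and -0.115 for those of KO.

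Same-numbered libraries did not deviate together (correlations of -0.0207 to 0.0255). The study names no pairing, and these correlations cannot show whether same-numbered pools came from the same lysate. With the replicate block, 9 genes were called in polysomes, all among the 15, 28 in RNP, 23 of them among the first 28, 12 and 27 for the pools of WT and KO and 0 for the ratio. Of 1490 values of 102 changes of named genes under an alternative, 137 lost their call, 6 gained one and 49 changed sign. The sign changes fell on 20 changes, of which none was called by limma with all libraries or under the alternative. In polysomes, KO against WT, *Mrps36* (0.425) was -0.024 to 1.141 with libraries left out. In RNP, KO against WT, *Mrpl34* (0.091) was -0.040 with quantile normalization and -0.007 to 0.201 with libraries left out, *Mrpl39* (0.076) was -0.030 with quantile normalization and -0.105 to 0.203 with libraries left out, *Mrps18b* (0.101) was -0.046 to 0.238 with libraries left out, *Mrps28* (-0.119) was -0.461 to 0.096 with libraries left out, *Mrpl32* (-0.071) was -0.180 to 0.043 with libraries left out, *Mrps36* (-0.196) was -0.592 to 0.117 with libraries left out and *Mrpl1* (-0.079) was -0.214 to 0.087 with libraries left out. For the ratio, *Mrpl10* (-0.009) was 0.012 with a pseudocount of 5, 0.048 with quantile normalization and -0.298 to 0.285 with libraries left out, *Mrps18a* (-0.072) was 0.098 with a pseudocount of 5 and -0.555 to 0.360 with libraries left out, *Mrps6* (0.044) was -0.058 with quantile normalization and -0.125 to 0.173 with libraries left out, *Mrps34* (0.445) was -0.146 to 0.950 with libraries left out and *Mrpl39* (-0.226) was -0.464 to 0.006 with libraries left out. For the pools of WT, *Mrpl1* (-0.118) was 0.261 with quantile normalization and -0.516 to 0.150 with libraries left out, *Mrps36* (0.151) was -0.565 to 0.599 with libraries left out, *Mrps18b* (0.171) was -0.051 to 0.308 with libraries left out and *Mrps30* (0.291) was -0.007 to 0.593 with libraries left out. For the pools of KO, *Mrpl34* (0.028) was -0.055 with quantile normalization and -0.129 to 0.116 with libraries left out, *Mrps34* (-0.146) was -0.723 to 0.359 with libraries left out and *Mrps28* (0.169) was -0.018 to 0.366 with libraries left out.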
